A study of Mus musculus with 48 samples.

Results

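Gastrocnemius muscle of mice fasted for 24 hr was compared with that of mice fed ad libitum (AL), over all genes measured on Illumina MouseRef-8 arrays. The comparison rests on 6 of the 48 arrays of the series, 3 fasted and 3 AL, each read out from RNA of 1 to 3 pooled male C57Bl/6J mice aged 3 months. The series also holds liver and epididymal white adipose tissue, and in each tissue mice on caloric restriction (CR) for 2 weeks, FGF21-Tg mice, whose transgene is driven in hepatocytes by the ApoE promoter, and the wild-type (WT) mice that served as controls of the transgenic animals and are labelled as fed ad libitum. Fasted, AL and CR mice carried no transgene and were killed in the same afternoon window.

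The members were selected on measured transcripts, because the deposited labels of 4 of the 6 arrays name another tissue. On chips 2 and 3 the leading tissue marker matched the label on only 4 of 16 arrays, against 32 of 32 on chips 1, 4, 5 and 6. When the labels of chips 2 and 3 were exchanged position by position, the leading marker matched on 48 of 48 arrays. Under this reading the AL muscle arrays lie at positions 5, 6 and 7 of chip 2 and carry the labels of AL adipose tissue replicate 3 and fasted adipose tissue replicates 1 and 2. One fasted muscle array lies at position 8 of chip 2, under the label of fasted adipose tissue replicate 3, and the other 2 are the fasted muscle replicates 2 and 3 of chip 4, whose labels were used as deposited. The exchange is a reading of the data and not a statement of the depositors, and it fixes the AL and fasted states of the chip 2 arrays as well as their tissue. Ckm, the creatine kinase of muscle fibers, lay between 15.5 and 15.64 (log2 signal) on the fasted arrays and between 15.93 and 16.02 on the AL arrays. Apoa1, a hepatocyte transcript, lay at 5.31 to 5.51 on fasted and 5.03 to 5.67 on AL arrays, and Adipoq, an adipocyte transcript, at 9.41 to 10.61 on fasted and 9.31 to 11.45 on AL arrays. These 3 transcripts chose the arrays and are given as a description. The fasted array of chip 2 correlated with the fasted arrays of chip 4 at r = 0.980 to 0.982 over all genes tested, and with the 3 AL arrays beside it on chip 2 at 0.952 to 0.957.

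Skeletal muscle is the main protein reserve of the body. When food is withdrawn, insulin falls and glucocorticoids rise, FoxO transcription factors enter the nucleus of muscle fibers, and genes for ubiquitin ligases and autophagy are switched on, so that fiber protein is broken down to amino acids for the liver. At the same time the fibers spare glucose by blocking pyruvate dehydrogenase and burn fatty acids released from adipose tissue.

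The 6 arrays detected 44.0 to 46.7% of their probes, and their small number limits the precision. Genes entered the test when a probe was detected (p under 0.05) on 3 or more of the 16 muscle arrays. The brightest such probe stood for the gene. They were called with more than a 2-fold change and an adjusted p (Benjamini-Hochberg, limma) under 0.10. Levels are background-corrected, quantile-normalized log2 signals, differences are fasted minus AL on that scale, and the fasted array of chip 2 is always given first among the fasted arrays. In a whole muscle, fewer cells of a type and less RNA per cell cannot be told apart.

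Of 9535 genes tested, 845 changed in fasted muscle, which is 8.86% of those tested, with 480 (5.03%) higher and 365 (3.83%) lower. Higher genes made up 56.8% of the calls, 65.7% with median scaling in place of quantile normalization and 71.6% with the deposited log2 values. By more than 4-fold, 77 genes rose and 44 fell. The median difference over all genes was -0.04. The 3 fasted and 3 AL arrays did not overlap for 825 of the 845 genes, against 41.6% of all genes tested. Of the 845 genes, 831 had the fasted array of chip 2 on the same side of all 3 AL arrays as the call, although that array is itself one of the 3 behind the call. By adjusted p alone, without the 2-fold limit, 41.1% of genes passed.

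The fasted array of chip 2 was also set alone against the AL arrays of its own chip, as 1 against 3. In that comparison 1063 genes changed (11.1% of those tested), 566 higher and 497 lower. The 2 fasted arrays of chip 4 were set against the 3 WT arrays of chip 6, and neither group needs an exchange of labels. Here 1175 genes changed (12.3%), 714 higher and 461 lower. Median scaling moved the share of higher genes to 38.2% within chip 2, against 53.2% (67% with the deposited values), and to 73.6% for chip 4 against WT, against 60.8%. It moved the median of all genes to -0.15 within chip 2 and to 0.09 for chip 4 against WT. The 2 comparisons share no array, but they share the normalization and the limma fit. They also share the estimate of each gene's spread between arrays, so their calls are not independent. They had 512 called genes in common, 48.2% of the genes called within chip 2 and 43.6% of those called for chip 4, and 507 of these had the same sign. Over all genes the differences correlated at r = 0.63, a description across genes that are not independent. Of the genes called within chip 2, 90.4% had the same sign in chip 4 against WT, while 68.1% of all genes did.

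**Figure D1:**
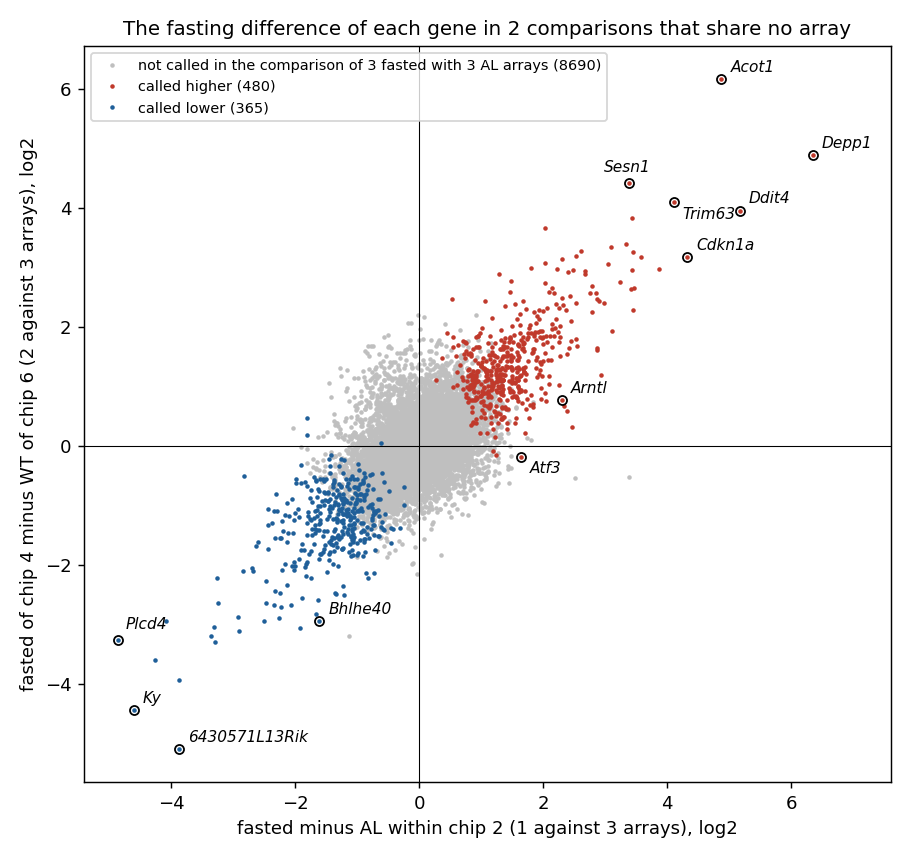
Each point is a gene, with the difference of the 1 fasted from the 3 AL arrays of chip 2 on the x axis and the difference of the 2 fasted arrays of chip 4 from the 3 WT arrays of chip 6 on the y axis, both in log2 units. Of the 845 genes called from 3 fasted and 3 AL arrays (red higher, blue lower), 839 have the sign of their call in both, and Atf3 is a labelled exception. The fasted and AL arrays shown are those behind the calls, so the shared sign is no independent check.

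The effects of both comparisons differed for 560 genes (5.87%), of which 43 were among the 845. Of the 560, 60.5% had the more positive value in chip 4. Median scaling gave 945 such genes, 84.4% of them more positive in chip 4, with the median of all genes at 0.28, and the deposited values gave 32, with 43.8%. Chip, mice and control group differ together between the 2 comparisons and cannot be told apart. WT muscle differed from AL muscle for 113 genes (1.19%), of which 24 were among the 845, and the 2 fasted arrays of chip 4 differed from the 4 CR muscle arrays of the same chip for 661 (6.93%).

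Genes of the ubiquitin ligase and FoxO program of muscle wasting were higher in fasted muscle. Of 13 measured atrophy ligases and FoxO genes, 11 rose, 0 fell and 2 did not pass, with a median difference of 2.43 against -0.04 for all genes and 5.03% of all genes called higher. The same number, 11, rose within chip 2 and in chip 4 against WT. Trim63, the ubiquitin ligase MuRF1 that marks thick-filament proteins for the proteasome, had log2 signals of 14.82, 15.30 and 15.38 in fasted muscle, against 10.39, 10.97 and 10.79 in AL muscle. The difference was 4.45 (standard error 0.16, limma adjusted p = 2.4e-11), a 21.9-fold rise. Fbxo32, the ligase atrogin-1, had 14.93, 14.91 and 14.93 in fasted and 11.73, 11.12 and 11.24 in AL muscle, a difference of 3.56 (standard error 0.24, adjusted p = 2.2e-08). For both ligases every fasted array lay above every AL array by more than 3 log2 units. Foxo1, the transcription factor that acts on both ligases, had 10.73, 11.04 and 11.27 in fasted and 8.33, 8.63 and 8.81 in AL muscle, a 5.38-fold rise (adjusted p = 1.4e-08).

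Sesn1, a stress-induced inhibitor of the growth kinase mTORC1, had 12.97, 13.76 and 13.92 in fasted and 9.70, 9.47 and 9.58 in AL muscle, a difference of 3.97 (standard error 0.22, adjusted p = 2.7e-09). Its difference was larger in chip 4 against WT, at 4.42, than within chip 2, at 3.38 (limma adjusted p of the difference 0.059). Cdkn1a, the cell cycle inhibitor p21, went the other way between the 2 comparisons, at 3.18 in chip 4 against WT and 4.32 within chip 2 (adjusted p = 0.031). It had 13.07, 12.58 and 12.50 in fasted and 8.86, 8.83 and 8.55 in AL muscle, so that its groups stood apart by more than 3 log2 units in either case. Ddit4, known as REDD1 and also an inhibitor of mTORC1, had 13.25, 13.68 and 13.83 in fasted and 7.49, 8.15 and 8.60 in AL muscle. The difference of 5.51 (standard error 0.40, adjusted p = 5.3e-08) was the second largest rise of all genes. In WT muscle Ddit4 lay at 9.38, 9.14 and 10.87, above AL muscle by 1.72 (limma adjusted p = 0.023), and the rise against WT was 3.96.

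**Figure D2:**
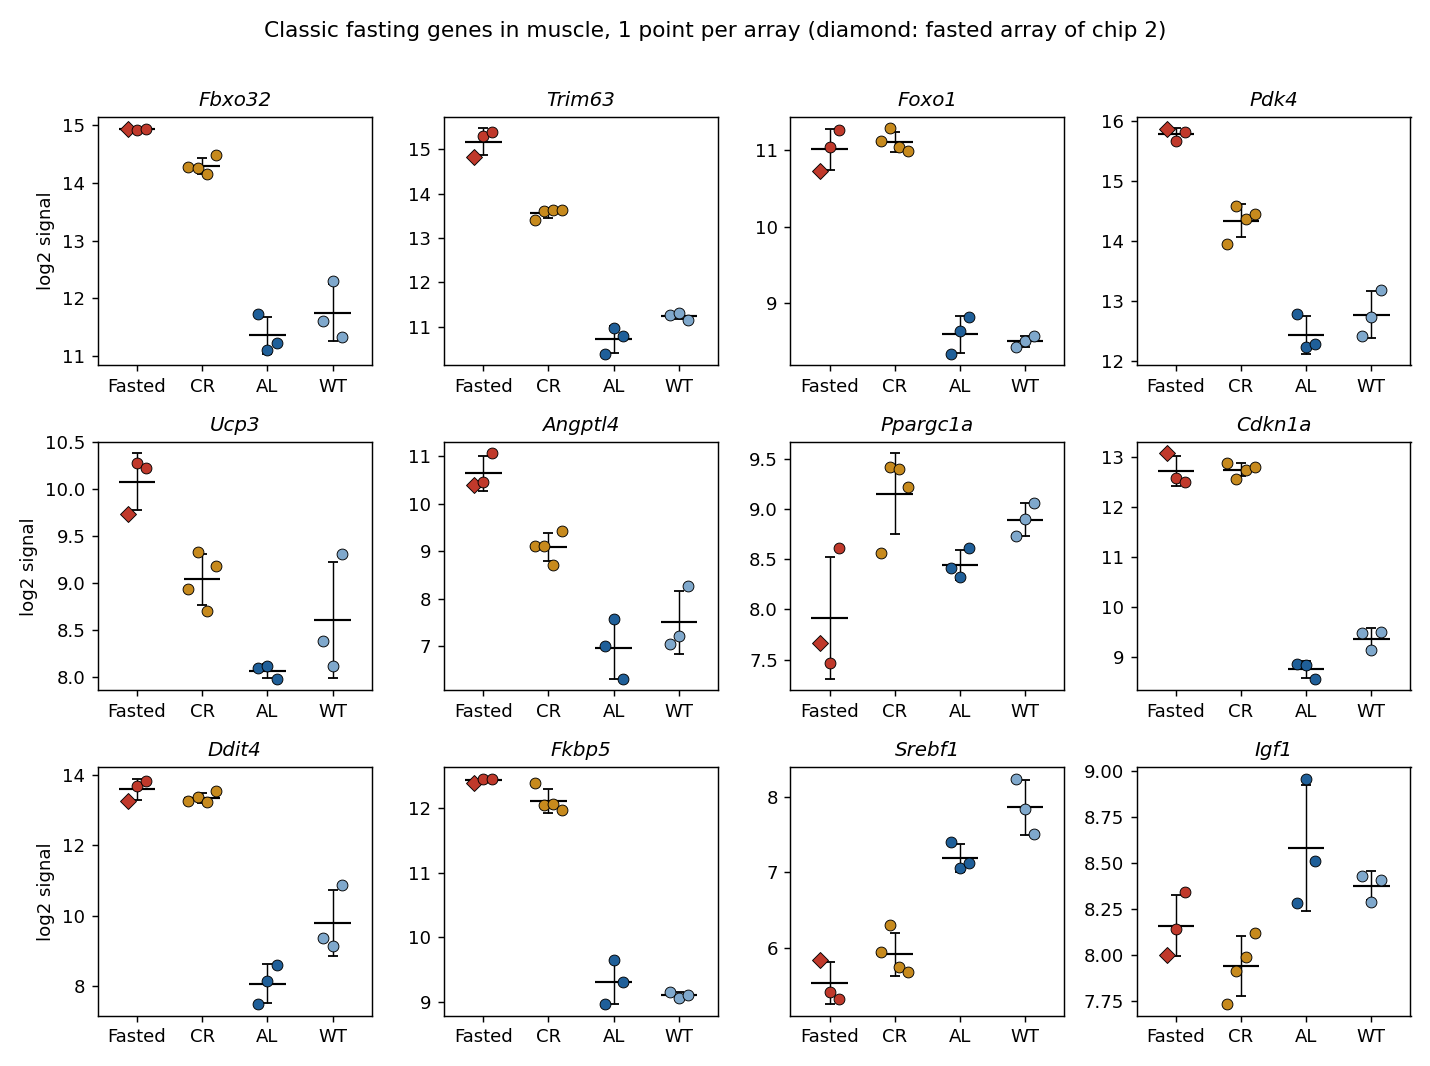
Log2 signal of 12 classic fasting genes in muscle, 1 point per array, with the mean (line) and SD (bar) of the 3 fasted, 4 CR, 3 AL and 3 WT arrays; the diamond is the fasted array of chip 2. For 9 genes the 3 fasted arrays lie above all AL and WT arrays, for Srebf1 below them, and for Ppargc1a and Igf1 they overlap with the AL arrays.

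The promoters of the group were searched for the FoxO motif GTAAACA on both strands, in the window from 250 bases before to 50 bases after each start site that RefSeq lists (build GRCm38.p6). Of 11 atrophy ligases and FoxO genes with a window, 2 hold the motif, Trim63 and Sesn1. Their windows are shown because both genes are among the 10 largest rises, of which 7 have a window. In capitals is TGTTTAC, the motif as read on the other strand, which begins at -194 from the start in Trim63 and 22 bases after it in 1 of the 2 windows of Sesn1. The Trim63 window is chr4:134314870-134315169 and the Sesn1 window chr10:41810324-41810623, both on the plus strand.
Trim63: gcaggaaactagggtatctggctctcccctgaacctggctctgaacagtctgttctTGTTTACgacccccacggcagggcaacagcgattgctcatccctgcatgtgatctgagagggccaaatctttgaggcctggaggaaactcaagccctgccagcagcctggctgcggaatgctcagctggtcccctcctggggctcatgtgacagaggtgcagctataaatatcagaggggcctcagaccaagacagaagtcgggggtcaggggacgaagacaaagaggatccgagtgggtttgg
Sesn1: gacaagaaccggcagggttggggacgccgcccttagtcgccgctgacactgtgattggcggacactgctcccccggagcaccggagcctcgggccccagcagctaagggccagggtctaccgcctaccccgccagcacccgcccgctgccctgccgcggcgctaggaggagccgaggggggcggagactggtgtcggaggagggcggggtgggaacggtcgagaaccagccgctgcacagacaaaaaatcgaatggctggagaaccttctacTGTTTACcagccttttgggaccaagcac
The motif is in the windows of 4.05% of the 27025 genes of the table, of 3.27% of the 7743 tested genes with a window, of 4.05% of the 395 higher and 3.25% of the 277 lower genes with one. A match describes the letters and shows no binding.

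Depp1, a FoxO target that takes part in autophagy, was the largest rise of all. It had 14.13, 14.46 and 14.19 in fasted muscle, against 7.05, 7.89 and 8.39 in AL muscle, a difference of 6.48 (standard error 0.31, adjusted p = 7.6e-10) or 89.4-fold. WT muscle was above AL muscle here too, at 9.35, 9.28 and 9.66, and the rise of the chip 4 arrays over WT was 4.89. Of 19 autophagy and lysosome genes 4 rose, against 5.03% of all genes, 0 fell and 15 did not pass, with a median of 0.45. Gabarapl1, a ubiquitin-like protein of the autophagosome membrane, had 12.32, 12.78 and 12.87 in fasted and 9.88, 9.58 and 9.68 in AL muscle, a 7.69-fold rise (adjusted p = 6.3e-09). Ulk1, the kinase that starts autophagy, rose 3.45-fold, Ctsl, the lysosomal protease cathepsin L, 3.69-fold and Bnip3, a receptor for mitophagy, 2.62-fold. Ctsl was detected on 1 of the 3 AL arrays. Of 29 proteasome subunits 2 rose above 2-fold, Psmd11 (2.28-fold) and Psmd8 (2.26-fold), against 5.03% of all genes called higher. The others moved little but mostly one way, with 27 of 29 differences above 0, a median of 0.55, and 19 higher and 0 lower by adjusted p alone (41.1% of all genes in either direction). Psmd8, a subunit of the regulatory particle, had 13.76, 13.74 and 13.97 in fasted and 12.44, 12.72 and 12.79 in AL muscle.

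Genes that glucocorticoids induce were mostly higher too. Of 16 glucocorticoid-induced genes and metallothioneins 13 rose, 0 fell and 3 did not pass, with a median of 1.68 against -0.04 for all genes. Over all genes 5.03% were called higher and 3.83% lower. The list shares Cdkn1a, Ddit4 and Klf15 with the atrophy genes. Fkbp5, a co-chaperone of the glucocorticoid receptor, had 12.40, 12.45 and 12.45 in fasted and 8.96, 9.65 and 9.30 in AL muscle, a difference of 3.13 (standard error 0.15, adjusted p = 8.8e-10). Mt1, which encodes a metal-binding metallothionein, had 15.62, 15.14 and 15.25 in fasted and 12.30, 12.27 and 12.03 in AL muscle, an 8.79-fold rise (adjusted p = 7.0e-08). Within chip 2, 13 of the list rose as well, and in chip 4 against WT 12 rose and 1 fell. In CR muscle Fkbp5 averaged 12.12 ± 0.19 (SD, n = 4) and Mt1 15.88 ± 0.085 (SD, n = 4).

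**Figure D3:**
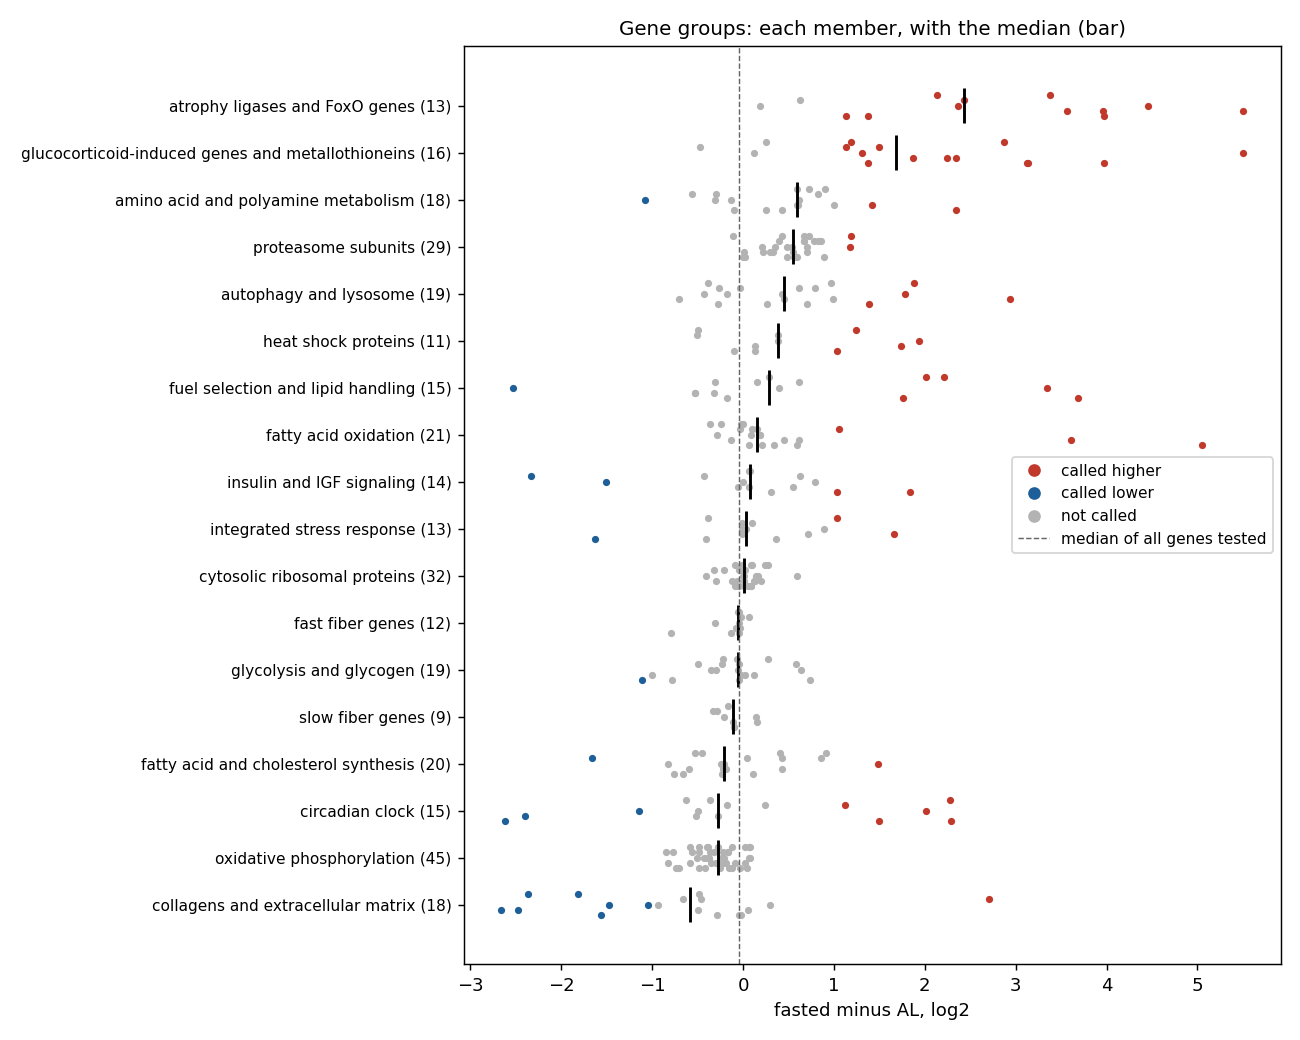
Difference of fasted from AL muscle (log2, x axis) for every measured member of the 18 gene groups, with the number of members in brackets, the group median as a bar and the median of all genes as a dashed line. Red and blue points are members called higher and lower. Atrophy and glucocorticoid-induced genes have medians of 2.43 and 1.68, and collagens and extracellular matrix one of -0.58.

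Of 15 genes of fuel selection and lipid handling 5 rose, 1 fell and 9 did not pass. Over all genes 5.03% were called higher and 3.83% lower. Pdk4, the kinase that shuts off pyruvate dehydrogenase, had 15.86, 15.66 and 15.81 in fasted and 12.79, 12.23 and 12.28 in AL muscle. The difference was 3.34 (standard error 0.21, adjusted p = 1.4e-08), and the fasted values lay near 16.07, the highest log2 value on the 16 arrays. Angptl4, an inhibitor of lipoprotein lipase, had 10.39, 10.46 and 11.06 in fasted and 6.99, 7.57 and 6.30 in AL muscle, a 12.9-fold rise (adjusted p = 4.0e-07). Plin5, a lipid droplet protein of oxidative tissue, rose 4.63-fold, Ucp3, the uncoupling protein of muscle mitochondria, 4.04-fold and Pnpla2, the triglyceride lipase ATGL, 3.40-fold. Pnpla2 was named after its value was seen. Ppargc1b, a coactivator of mitochondrial genes, fell, with 8.77, 7.80 and 7.90 in fasted and 10.31, 10.62 and 11.14 in AL muscle (difference -2.53, adjusted p = 4.7e-06). Its relative Ppargc1a had 7.66, 7.47 and 8.61 in fasted and 8.41, 8.32 and 8.61 in AL muscle, and the groups overlapped (difference -0.53, adjusted p = 0.13).

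Among 21 fatty acid oxidation genes there were 3 that rose, 0 that fell and 18 that did not pass, and the median was 0.16. Over all genes 5.03% were called higher and 3.83% lower. Acot1, the cytosolic thioesterase that frees fatty acids from coenzyme A, had 11.83, 12.11 and 12.08 in fasted and 6.54, 7.10 and 7.22 in AL muscle, a 33.2-fold rise (standard error 0.26 on a log2 difference of 5.05, adjusted p = 1.3e-09). Its mitochondrial relative Acot2 had 10.13, 9.74 and 9.74 in fasted and 5.98, 6.18 and 6.64 in AL muscle, a 12.2-fold rise. Both genes are near-identical copies, and how far their probes respond to each other's transcript was not tested. A second probe of Acot2 had a difference of 0.45 and one of Acot1 3.17. Mlycd, which removes malonyl-CoA, an inhibitor of fatty acid entry into mitochondria, was the third, at 2.08-fold. It was at 0.99 on the log2 scale, below the 2-fold limit, without the fasted array of chip 2, and at 0.89 without AL replicate 1.

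Above the 2-fold limit glucose use and lipid synthesis showed single changes, near the shares of all genes called higher (5.03%) and lower (3.83%). Of 19 genes of glycolysis and glycogen 0 rose and 1 fell, the muscle phosphoglycerate mutase Pgam2. It had 13.75, 14.23 and 14.41 in fasted and 15.16, 15.30 and 15.28 in AL muscle, a difference of -1.11 (standard error 0.18, adjusted p = 1.5e-04). The fall was -0.55 in chip 4 against WT and -1.49 within chip 2 (adjusted p of the difference 0.065), and -0.92 without the fasted array of chip 2. With median scaling 0 of the 19 were called. Hk2, named after its value was seen, lay just short of the limit at -0.999 (limma adjusted p = 3.2e-05). It was at -1.06 within chip 2 and -0.94 in chip 4 against WT. By adjusted p alone 2 of the 19 were higher and 4 lower, against 41.1% of all genes in either direction. Of 20 genes of fatty acid and cholesterol synthesis 1 rose, 1 fell and 18 did not pass, while 5 were higher and 6 lower by adjusted p alone. Srebf1, the transcription factor that drives fatty acid synthesis, had 5.84, 5.41 and 5.32 in fasted and 7.4, 7.05 and 7.12 in AL muscle and was detected on 1 of the 3 fasted arrays (difference -1.67, adjusted p = 3.4e-05). Lpin1, which makes diacylglycerol and also acts with Ppargc1a, rose 2.80-fold.

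Of 45 subunits of oxidative phosphorylation 0 changed by more than 2-fold, while 18 were lower and 0 higher by adjusted p alone in limma (5 lower with median scaling), against 41.1% of all genes that passed in either direction. The median was -0.28. Of all genes tested 8.86% were called. At an unadjusted p under 0.05, 20 passed. SAM was run with the same 2-fold limit, which no difference reached, so its count of 0 was fixed by that limit. Ndufb9, a complex I subunit, had the largest difference, with 13.60, 12.79 and 12.49 in fasted and 13.77, 13.82 and 13.82 in AL muscle (-0.84, adjusted p = 0.0038). Sdhd, a complex II subunit, had 11.80, 10.95 and 10.80 in fasted and 11.88, 12 and 12.16 in AL muscle (-0.83, adjusted p = 0.0042). For both the fasted array of chip 2 lay close to the AL arrays of its chip, with differences of -0.20 and -0.21 that did not pass (limma adjusted p = 0.41 and 0.42), and only the chip 4 arrays stood lower. WT muscle was also below AL muscle for both, with differences of -0.75 for Ndufb9 and -0.71 for Sdhd (adjusted p = 0.0034 and 0.0056). Without the fasted array of chip 2, 5 subunits fell by more than 2-fold. The contribution of the chip to these differences was not tested.

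Few contractile genes were called, against 8.86% of all genes tested. At that share lists this short are likely to hold few calls, so their counts of 0 say little. Of 9 slow fiber genes 0 rose and 0 fell, and SAM called 0. In limma 0 passed by adjusted p alone, against 41.1% of all genes in either direction, and 0 at an unadjusted p under 0.05. SAM kept the 2-fold limit, which no fasted minus AL difference in the lists of this paragraph reached, so its counts of 0 were fixed. Myl2, the slow myosin light chain, had 13.93, 13.97 and 13.88 in fasted and 13.64, 14.44 and 14.54 in AL muscle, so that the fasted arrays lay inside the AL range. Of 12 fast fiber genes 0 rose and 0 fell by more than 2-fold, and 1 passed by adjusted p alone (1 at an unadjusted p under 0.05, 0 by SAM). That was Tpm1, a tropomyosin, with 11.06, 10.50 and 10.39 in fasted and 11.27, 11.58 and 11.49 in AL muscle (difference -0.80, adjusted p = 0.0015). In chip 4 against WT it was called, at -1.13 (limma adjusted p = 3.1e-05), and was at -0.38 within chip 2. The slow myosin heavy chain Myh7, named after its value was seen, was also called there, at -1.12 (adjusted p = 0.025), with 0.14 in fasted against AL muscle. Myh1, the fast IIx myosin heavy chain, had 14.58, 13.96 and 13.59 in fasted and 14.51, 14.25 and 14.30 in AL muscle, a difference of -0.31 that was 0.22 within chip 2. Of 32 cytosolic ribosomal protein genes 0 changed, with a median of 0.01, and 2 passed by adjusted p alone and 2 at an unadjusted p under 0.05 (0 by SAM). One of these was Rpl3, at 12.96, 13.11 and 13.20 in fasted and 12.58, 12.64 and 12.26 in AL muscle (difference 0.60, adjusted p = 0.0044).

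Of 14 genes of insulin and IGF signaling 2 rose and 2 fell, against 5.03% of all genes called higher and 3.83% lower. Irs2, an adaptor of the insulin receptor, had 10.50, 10.79 and 10.87 in fasted and 8.28, 9.06 and 9.31 in AL muscle, a 3.57-fold rise (adjusted p = 4.0e-04). Against WT the chip 4 arrays were higher by 0.96 (adjusted p = 0.052), below the 2-fold limit. Igfbp5, a binding protein of IGF, had 11.63, 11.71 and 11.60 in fasted and 13.79, 13.92 and 14.21 in AL muscle, a difference of -2.33 (standard error 0.13, adjusted p = 3.2e-09). Grb14, an inhibitor of the insulin receptor, also fell, by 1.51 on the log2 scale. Akt2, the insulin-responsive kinase, had 6.15, 6.95 and 7.36 in fasted and 5.82, 5.90 and 5.62 in AL muscle. It rose 2.05-fold (adjusted p = 0.028), but was at 0.37 within chip 2 (adjusted p = 0.58), at 0.77 (adjusted p = 0.13) without fasted replicate 3, and below the 2-fold limit at 0.97 without fasted replicate 2 and 0.96 without AL replicate 3. Igf1 had 8, 8.14 and 8.34 in fasted and 8.28, 8.96 and 8.51 in AL muscle, and the groups overlapped (difference -0.42, adjusted p = 0.062).

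Of 15 genes of the circadian clock 5 rose and 3 fell, against 5.03% of all genes called higher and 3.83% lower. Arntl, which encodes the clock activator BMAL1, had 10.76, 10.78 and 10.71 in fasted and 8.93, 8.14 and 8.30 in AL muscle, a 4.89-fold rise (adjusted p = 3.3e-06). WT muscle had 10.09, 10.22 and 9.61, and the difference was 0.77 in chip 4 against WT and 2.30 within chip 2 (adjusted p of the difference 0.072). Cry2, a clock repressor, rose 4.86-fold, with 9.46, 9.60 and 10.06 in fasted and 7.67, 7.42 and 7.19 in AL muscle. Dbp, an output gene of the clock, fell, with 11.03, 11 and 11.10 in fasted and 13.44, 13.87 and 13.70 in AL muscle (difference -2.62, adjusted p = 4.5e-07). Bhlhe40, a repressor of clock genes, had 11.38, 10.27 and 10.13 in fasted and 12.98, 12.91 and 13.07 in AL muscle. Its fall was -2.95 in chip 4 against WT and -1.61 within chip 2 (adjusted p of the difference 0.0059). The other members called were Nfil3 (4.05-fold), Per1 (2.82-fold) and Rora (2.17-fold), which rose, and Bhlhe41, which fell, all named after their values were seen. Bhlhe41 was detected on 0 fasted and 2 AL arrays and was at least 1.2-fold lower. It was not called within chip 2 (-0.99) or in chip 4 against WT (-0.31). Per1 was at 0.91 in chip 4 against WT, below the 2-fold limit. Whether the WT mice were killed at the same time of day is not given in the sources used here.

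Of 18 genes of amino acid and polyamine metabolism 2 rose and 1 fell, against 5.03% of all genes called higher and 3.83% lower. Glul, glutamine synthetase, which makes the glutamine that muscle exports, had 10.37, 9.84 and 9.31 in fasted and 7.06, 7.52 and 7.91 in AL muscle, a 5.08-fold rise (adjusted p = 1.4e-05). Slc7a8, a neutral amino acid transporter, rose 2.67-fold, and its second probe had a difference of 0.34. Smox, spermine oxidase, had 13.03, 13.77 and 13.82 in fasted and 14.49, 14.78 and 14.61 in AL muscle (difference -1.08, adjusted p = 0.0011), and was at -0.83 without the fasted array of chip 2. In chip 4 against WT it was at -0.56 and within chip 2 at -1.59 (adjusted p of the difference 0.085).

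Stress genes moved both ways. Of 13 genes of the integrated stress response 2 rose and 1 fell, and of 11 heat shock proteins 4 rose and 0 fell. Over all genes 5.03% were called higher and 3.83% lower. For the heat shock proteins 8 of 11 differences were above 0, with a median of 0.38, whereas in chip 4 against WT 3 of 11 were, with a median of -0.14 and 3 that rose. Atf3, a stress-induced transcription factor, had 7.20, 7.44 and 7.03 in fasted and 5.33, 5.91 and 5.45 in AL muscle, a 3.16-fold rise (adjusted p = 1.6e-05), and was detected on 1 of the 3 AL arrays. WT muscle had 7.51, 7.19 and 7.56, and the difference was -0.18 in chip 4 against WT and 1.64 within chip 2 (adjusted p of the difference 0.020). Hspa1a, the inducible HSP70, had 8.27, 8.42 and 8.13 in fasted, 6.73, 7.59 and 6.76 in AL and 8.76, 7.96 and 8.57 in WT muscle, a 2.37-fold rise over AL (adjusted p = 0.0026) and a difference of -0.15 in chip 4 against WT (adjusted p = 0.74). The small heat shock proteins did not follow this pattern. Hspb1 had 13.69, 13.58 and 13.71 in fasted and 11.83, 12.10 and 11.83 in AL muscle, a 3.34-fold rise, and was higher by 1.98 in chip 4 against WT. Hspb7, abundant in heart and muscle, rose 3.82-fold and Bag3, which delivers damaged filament proteins to autophagy, 2.04-fold. Bag3 was below the 2-fold limit, at 0.98 without fasted replicate 3 and 0.90 without AL replicate 1. Ddit3, the transcription factor CHOP, had 7.36, 7.95 and 8.04 in fasted and 8.91, 9.57 and 9.77 in AL muscle (difference -1.63, adjusted p = 4.4e-05). Chac1, which degrades glutathione, rose 2.05-fold, and was at 0.97 on the log2 scale without the fasted array of chip 2.

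Of 18 genes of collagens and extracellular matrix 7 fell and 1 rose, against 3.83% of all genes called lower and 5.03% higher, and the median was -0.58. Without the fasted array of chip 2, 9 fell, and with the deposited log2 values 2 did. Col15a1, a collagen of the basement membrane, had 7.23, 6.82 and 7.08 in fasted and 9.67, 9.74 and 9.70 in AL muscle, a difference of -2.66 (standard error 0.17, adjusted p = 1.9e-08). Col6a2, a chain of the collagen around fibers, had 7.03, 7.29 and 7.38 in fasted and 9.78, 9.85 and 9.5 in AL muscle (difference -2.47, adjusted p = 5.8e-06). Col3a1, a fibrillar collagen, had 9.53, 7.80 and 7.81 in fasted and 10.73, 11.02 and 10.47 in AL muscle. The fasted array of chip 2 thus lay between the chip 4 arrays and the AL arrays. The difference was -2.36, while a second probe of Col3a1 had -0.92, below the 2-fold limit. Lox, the enzyme that cross-links collagen, was the gene that rose, with 11.21, 10.61 and 11.31 in fasted and 8.48, 8.68 and 7.86 in AL muscle (difference 2.70, adjusted p = 1.8e-07). Tendon markers moved with this group, as 2 of 4 tested fell, Scx (-1.45) and Kera (-1.65), and Tnmd and Thbs4 were not detected on any fasted or AL array. The summed linear signal of the 6 tendon markers on the array was 1269 to 1799 in fasted and 2138 to 2862 in AL muscle, and its part in the collagen falls was not tested.

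Among markers of other cells, 0 of 7 macrophage, 0 of 10 endothelial, 0 of 4 Schwann cell, 0 of 3 erythroid and 0 of 2 hepatocyte markers changed by the same rule in limma or SAM. Over all genes 8.86% were called, so lists of 2 to 10 genes are likely to hold few calls, and these counts say little on cell content. At an unadjusted p under 0.05, 4 macrophage, 1 endothelial and 1 Schwann cell marker passed. By adjusted p alone 3 macrophage markers were lower, and 1 macrophage, 1 endothelial and 1 Schwann cell marker were higher. Over all genes 41.1% passed in either direction. Without Adipoq, likewise used in the choice, the other 8 adipocyte markers summed to 819.6 to 1558 in fasted and 609.2 to 1553 in AL muscle, and the ranges overlapped. Cidea was higher (1.05) and Lep lower (-1.05) among the 5 of these that were tested, but 0 passed without fasted replicate 3 or without AL replicate 1, and Fabp4, Plin1 and Retn were not detected on any of the 6 arrays. Without Ckm, which served to choose the arrays, the other 7 skeletal muscle markers summed to 418528 to 429589 in fasted and 438173 to 448364 in AL muscle. These ranges did not overlap, which was also so for 41.6% of all genes tested. By limma and SAM 0 of these 7 changed by more than 2-fold, and 0 passed at an unadjusted p under 0.05.

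The largest falls came from genes of varied function. 6430571L13Rik had 7.77, 6.67 and 6.77 in fasted and 11.41, 11.82 and 11.71 in AL muscle, a difference of -4.58 (standard error 0.29, adjusted p = 1.4e-08). Ky, a cytoskeletal protein of the muscle Z-disc whose loss causes kyphoscoliosis in mice, had 10.07, 10.38 and 10.16 in fasted and 14.70, 14.68 and 14.63 in AL muscle. The difference of -4.47 (standard error 0.14, adjusted p = 6.9e-12) had the smallest standard error but one among the 10 largest falls. Cish, a feedback inhibitor of cytokine and growth hormone signaling through STAT5, had 8.60, 7.76 and 8.01 in fasted and 12.01, 11.74 and 11.84 in AL muscle, while the 3 WT arrays spread from 8.91 to 11.17. Tfrc, the transferrin receptor that takes up iron, had 9.09, 9.31 and 9.49 in fasted and 12.43, 12.53 and 12.22 in AL muscle, a difference of -3.10 (standard error 0.23, adjusted p = 7.0e-08).

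Ptx3, a secreted pattern-recognition protein, was not detected on any fasted array and was at least 10.1-fold lower in fasted muscle, taking for each array the lowest signal of a detected probe as the limit. Its log2 signals were 9.22, 9.16 and 9.13 in AL muscle. Conversely Doc2b, a calcium sensor of vesicle release, was below detection on the 3 AL arrays. By the same limit it was at least 7.33-fold higher with fasting, at 8.55, 8.54 and 9.01 in fasted muscle. Plcd4, a phospholipase C, had 5.53, 6.84 and 7.25 in fasted and 10.59, 10.46 and 10.10 in AL muscle, with a fall of -3.26 in chip 4 against WT and -4.86 within chip 2 (adjusted p of the difference 0.028). Fam78a (-3.77), Cited4 (-3.70), a transcriptional coactivator, Vmn1r65 (-3.36), annotated as a vomeronasal receptor, and Itgb6 (-3.21), an integrin subunit, complete the 10 largest falls. Every gene among the 10 largest rises and 10 largest falls had the same sign within chip 2, which their choice by non-overlap with the AL arrays fixed. Each was also called with that sign in chip 4 against WT, whose fasted arrays took part in the choice.

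**Figure D4:**
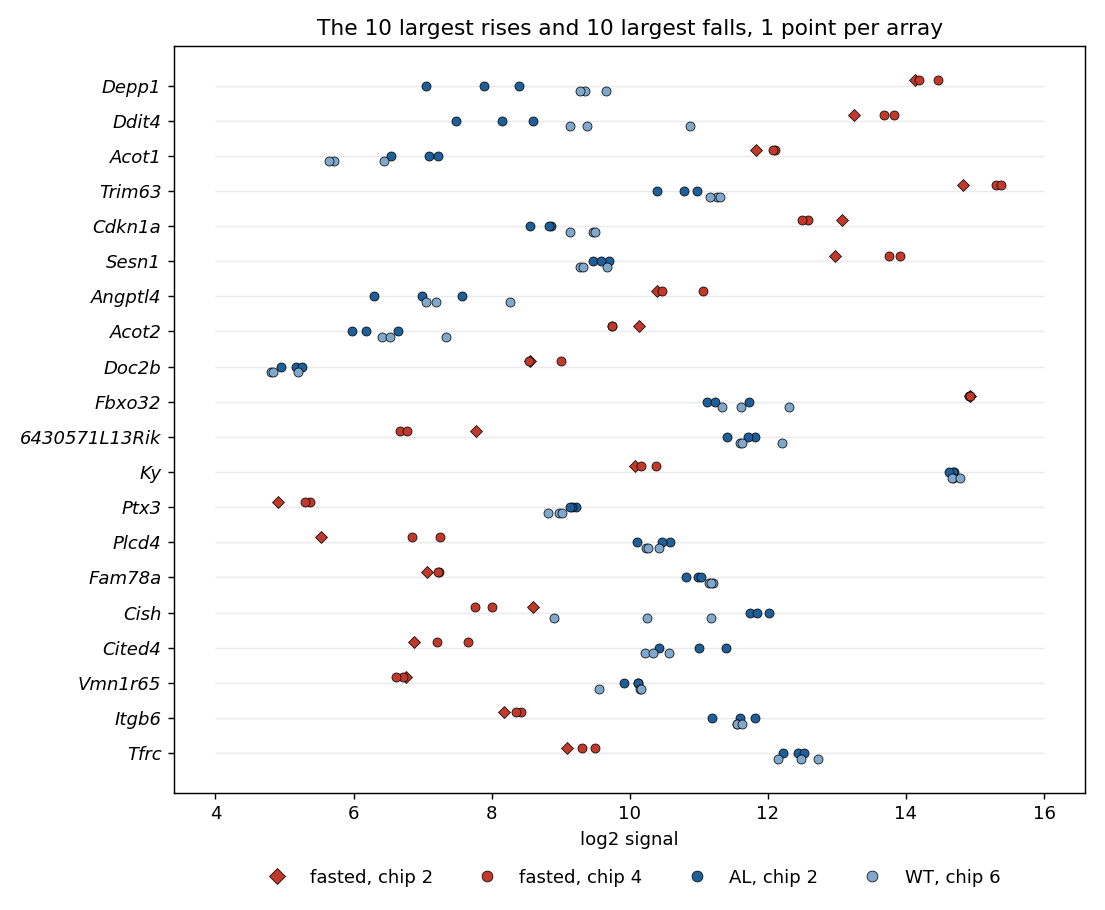
Log2 signal (x axis) of the 10 genes with the largest rise and the 10 with the largest fall, 1 point per array: fasted on chip 2 (diamond) and chip 4, AL on chip 2 and WT on chip 6. All 3 fasted arrays lie on 1 side of all AL and WT arrays for every gene shown.

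The fasting difference in muscle was set against those in liver and adipose tissue in 1 fit over all 48 arrays, for 12 classic fasting genes and for all genes as a background. The liver arrays lie on chip 1 under their own labels, and the adipose arrays on chip 3 by the same exchange of labels. Over all genes the muscle difference was unlike that of liver for 1267 genes (10.8% of 11772), 54.5% of them more positive in muscle (70.7% with median scaling), and unlike that of adipose tissue for 1066 (9.06%), 51.3% more positive in muscle (64.1% with median scaling). For Trim63 the difference of fasted from AL was 4.30 in muscle, 0.12 in liver and -0.18 in adipose tissue, and 1 of 6 arrays detected it in liver and likewise in adipose tissue. The muscle minus liver difference was 4.18 (standard error 0.33, limma adjusted p = 5.8e-12). Fbxo32, Foxo1 and Ucp3 had larger rises in muscle than in either other tissue as well, with muscle minus liver at 3.01, 1.98 and 1.69 and muscle minus adipose tissue at 2.47, 1.99 and 1.72. Ucp3 was detected on 0 of the 6 liver arrays. Fbxo32 was detected on 1 of the 3 AL liver arrays, so the differences of both from liver are bounded by detection.

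Angptl4 rose in all 3 tissues, by 3.55 in muscle, 2.10 in liver and 1.24 in adipose tissue. The rise in muscle was above that in liver (1.45, limma adjusted p = 0.024). Muscle minus adipose tissue was 2.31 (adjusted p = 3.5e-04). Angptl4 lay at 15.13 in fasted adipose tissue, near the top of the scale. It lay at 13.89 in AL adipose tissue and 7.25 in AL muscle, so its rises in these 2 tissues are not ranked. Pdk4 rose by 3.21 in muscle, 1.68 in liver and 4.48 in adipose tissue. Its rise in muscle was above that in liver (1.53, adjusted p = 0.029). Muscle minus adipose tissue was -1.27 (adjusted p = 0.084), and median scaling gave -0.58 (adjusted p = 0.52). Pdk4 lay at 15.74 in fasted muscle, near the top of the scale. It lay at 12.53 in AL muscle and 8.86 in AL adipose tissue, so its rises in these 2 tissues are not ranked. Ppargc1a had differences of -0.51 in muscle, 1.84 in liver and 1.25 in adipose tissue, and the muscle difference was below both (adjusted p = 9.1e-06 and 6.1e-04). Srebf1 fell in all 3 tissues, with differences of -1.83 in muscle, -4.19 in liver and -3.55 in adipose tissue. Only 1 of 3 fasted muscle arrays detected it, and the AL level was 7.49 in muscle, 11.21 in liver and 10.49 in adipose tissue, so the sizes of the falls are not ranked. Cdkn1a rose by 3.83 in muscle and 4.02 in adipose tissue, which did not pass as a difference (-0.19 ± 0.49, standard error). In liver it was detected on all 3 fasted and 0 of 3 AL arrays, so its rise there is only a lower bound and is not compared. Fkbp5 rose in all 3 tissues by 2.41 to 3.00, and its muscle rise minus that in liver (0.40 ± 0.30, standard error) and in adipose tissue (0.60 ± 0.30) did not pass. Ddit4 rose more in muscle than in liver (2.55, adjusted p = 2.6e-04), and the difference from adipose tissue of 0.90 did not pass (adjusted p = 0.26). With median scaling the differences from adipose tissue passed for Ddit4 (1.72) and Fkbp5 (1.17). Igf1 had differences of -0.60 to -0.35.

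**Figure D5:**
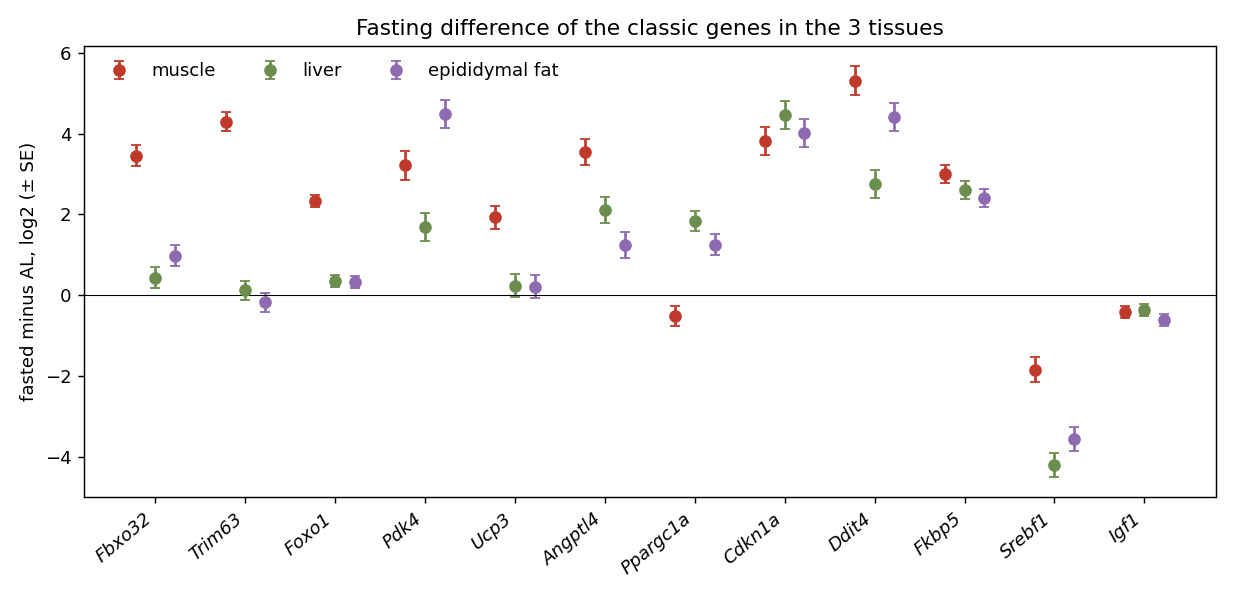
Difference of fasted from AL mice (log2, with standard error) for 12 classic genes in muscle, liver and epididymal fat, from 1 fit over 48 arrays. Trim63, Fbxo32, Foxo1 and Ucp3 stand out in muscle, at 1.93 to 4.30, while Fkbp5 lies at 2.41 to 3.00 in all 3 tissues.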

How the data were processed

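Transcripts were measured on Illumina MouseRef-8 arrays (25697 probes, 48 arrays, 6 chips). The authors deposited BeadStudio signal intensities without normalization, and beside each one a detection p-value. The version is not given in the sources used here. The authors also deposited log2 values, background corrected by a model and quantile normalized, which served as an alternative here.

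Background was removed from the intensities by nec in limma 3.58.1 (R 4.3.3, offset 16), and the values were quantile normalized among the 16 muscle arrays and log2 transformed. Of the probes 23978 carry 1 gene symbol and 1719 none, which were left out (59 of 786 measured were called). The brightest of the probes that passed the detection filter stood for a gene. Of 9535 genes, 2399 had several measured probes. The 5 muscle groups were fitted together in limma. Another fit split the fasted arrays by chip, and one more took all 48 arrays. A lone array was assumed to vary like the other groups. For a gene undetected in a group, the fold is a lower bound. The tests were also run on simulated data, with means and spreads taken from these arrays.

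The genes named are the 10 largest rises and falls whose groups do not overlap, up to 4 called members of each of 18 lists (2 where none was called) and a classic set of 12 genes. Members added to complete a count were named after their values were seen. The arrays, lists and tests were chosen with earlier results of these data known. The labels call the arrays biological replicates, and p-values measure the spread between them. Alternatives were other background corrections, scalings, filters and probe rules, chip or replicate blocks, a fit of the 6 arrays alone, SAM (all 20 groupings), WT arrays as controls and leaving out each array.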

Additional observations from a re-analysis of the deposited data

Results flagged for a closer look

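For 11 of the 69 named genes the difference between the fasting effect of chip 4 against WT and that within chip 2 passed in limma at an adjusted p under 0.10. The effect of chip 4 was lower by 1.14 for Cdkn1a, and the differences were -0.75 for Tpm1, -1.34 for Bhlhe40, -1.53 for Arntl, -1.82 for Atf3 and -1.22 for Lox. They were 1.03 for Sesn1, 1.59 for Plcd4, 0.94 for Pgam2, 1.04 for Smox and 1.16 for Ddit3. Chip, mice and control group cannot be told apart in these differences.

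Between tissues, the fasting effect in muscle minus that in liver passed for 9 of 12 classic genes, at 3.01 for Fbxo32, 4.18 for Trim63, 1.98 for Foxo1, 1.53 for Pdk4, 1.69 for Ucp3, 1.45 for Angptl4, -2.35 for Ppargc1a, 2.55 for Ddit4 and 2.35 for Srebf1. Muscle minus adipose tissue passed for 8, at 2.47 for Fbxo32, 4.47 for Trim63, 1.99 for Foxo1, -1.27 for Pdk4, 1.72 for Ucp3, 2.31 for Angptl4, -1.76 for Ppargc1a and 1.72 for Srebf1. Srebf1 was detected on 1 of 3 fasted muscle arrays, so its values are bounded by detection. So are those of Trim63, detected on 1 of 6 arrays in liver and in adipose tissue. The same holds against liver for Fbxo32 (1 of 3 AL liver arrays) and Ucp3 (0 of 6 liver arrays). Pdk4 lay at 15.74 in fasted muscle, near the top of the scale, so its measured rise there may be too small. The same holds for Angptl4 in adipose tissue, at 15.13 in fasted mice.

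In CR muscle 1 of the 12 classic genes, Trim63, had an array far from the other 3. It had 13.40, 13.61, 13.62 and 13.62, and the gap was 0.955 of the range. At the limit used, chance marks about 1 group in 20.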

How the results depend on the processing

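The count of 845 genes was 854 to 928 when each array was left out, 1067 to 1150 within chip 2 (1063 with all arrays) and 1158 to 1252 for chip 4 against WT (1175). Without background correction these counts were 372, 414 and 430, and with the deposited log2 values 211, 230 and 260. For the first comparison 56.8% of calls were higher, against 71.6% with the deposited values. Genes whose 2 fasting effects differed (560) numbered 945 with median scaling and 32 with the deposited values. The other settings stayed within 1.5 times, among them chip as a random block (849), SAM (848, all of the 845 among them) and WT arrays as controls (1011). Replicate numbers did not pair the samples (same-number correlations 0.122, 0.072 and -0.0317), and a replicate block gave 846 genes. The chip as a fixed block uses only the fasted array of chip 2 and gave 1063.

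Of 1428 values of single genes under alternatives, 1367 kept sign and call. The sign turned for Myh1 with chip as a fixed block (0.22), for Atf3 and Hspa1a with WT controls (-0.20 and -0.16), and with median scaling for Igf1 (muscle minus liver, 0.091) and Cdkn1a (muscle minus adipose tissue, 0.44). The cause was not tested. Of 18 list medians 17 kept their sign under 5 ways of processing, and that of slow fiber genes did not.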
